A study of Rattus norvegicus with 90 samples.

Results

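The shortest polyadenylated transcripts that were still well counted in rat hepatocytes, renal tube epithelial cells and cardiomyocytes are described here: 250 of the 40071 annotated transcripts in the deposited tables. A transcript was counted well when its estimated count was at least 100 in 80 or more of the 90 libraries, which held for 9341 transcripts, and the 250 with the smallest annotated length were taken, ties being ordered by identifier. They make up 2.68% of the well-counted transcripts. Their lengths ran from 49 to 560 bases with a median of 454 bases, against a median of 2319 bases for all well-counted transcripts, and 11009 annotated transcripts are no longer than 560 bases.

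All cells came from Sprague-Dawley rats and were exposed in culture to thioacetamide-S-oxide, a reactive metabolite of the liver toxicant thioacetamide, or to vehicle, for 9 or 24 h. Hepatocytes received vehicle, a low dose of 0.025 mM or a high dose of 0.125 mM. Renal tube epithelial cells, called renal cells below, received vehicle, 0.125 mM or 0.500 mM, and cardiomyocytes received vehicle, 0.50 mM or 1.50 mM. Each of the 18 conditions held 5 libraries. The hepatocytes and renal cells were bought as cryopreserved primary cells, plated for RNA work in collagen-coated or poly-lysine-coated wells, and the vehicle was culture medium. The study chose the doses so that few cells were lost, and asked how far the responses of cultured cells follow those of the organs. The doses differ between cell types, so a low dose in one cell type is not matched by the low dose in another.

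Short messages are a mixed class. In mammalian cells the abundant messages for ribosomal proteins, small subunits of the respiratory chain, metallothioneins and small secreted or signalling proteins are short, because the proteins are small and the untranslated regions compact. Transcript annotations also hold short fragments and processed copies of longer genes, whose sequence can repeat elsewhere in the genome. A read pair from a repeated stretch is compatible with several transcripts, and a program such as Kallisto then divides it among them. Gene names were not used, because the tables give each transcript by its Ensembl identifier only, and the labelled cell types were therefore not checked against marker genes. The identifiers stand for the transcripts throughout.

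Levels are given as CPM, the estimated count of a transcript per 1000000 estimated counts on annotated transcripts in that library. CPM is the share of counts a transcript took and is not corrected for length. TPM is corrected for length and is used for the levels of different transcripts, while a CPM set beside that of another transcript compares the counts taken and not the levels. The 89 libraries used held between 10519414 and 55822031 counts on annotated transcripts, with a median of 26073383. A further library, MS-183 of the hepatocytes on vehicle for 24 h, stood apart and was left out, so that condition has 4 libraries.

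The count floor chose the 250 transcripts, and so their levels across libraries are a description. In all 89 libraries used, 59.2% of them reached 100 counts. ENSRNOT00000076110 (448 bases) and ENSRNOT00000039481 (456 bases) reached the floor in exactly 80 libraries, the fewest allowed, and had medians of 6.60 and 6.48 CPM. The smallest median share of counts was that of ENSRNOT00000089462, a target shorter than 1 read, at 5.43 CPM. A further 7 transcripts no longer than 560 bases reached it in 79 libraries and were not taken, among them ENSRNOT00000088846 (384 bases) with a median of 135.6 CPM. At the length limit, ENSRNOT00000016509 was the last taken and ENSRNOT00000023811 the first left out, both of 560 bases, with medians of 45.5 and 37.2 CPM.

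Very short targets formed a small part of the set. Of the 250, 11 were shorter than 150 bases, the length of 1 sequencing read, and 13 were shorter than 200 bases. The 9 below 100 bases had a median TPM of 2847 and a median effective length of 16.3 bases, but they stand for 2 distinct estimates, since 8 of them have identical counts. The 93 of at least 400 but under 500 bases had a median TPM of 219 and an effective length of 297 bases, and the 68 of 500 to 560 bases had a median TPM of 160.7. The CPM of these classes did not fall in the same way, with medians of 40.1, 50.5 and 46.2 CPM. In the classes between them the medians were 9.74 CPM for the 4 transcripts of 100 to 199 bases, 37.0 CPM for the 18 of 200 to 299 bases and 39.96 CPM for the 58 of 300 to 399 bases. TPM divides the count by the effective length, and the median TPM fell with each step in length over the 6 classes, of which the shortest holds only 2 distinct estimates, while the median CPM had no such order.

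Several of the 250 could not be told apart by their counts. In 6 groups holding 21 transcripts, all transcripts of a group had the same estimated count in every library, which leaves 235 distinct estimates. The 3 shortest transcripts, ENSRNOT00000071640, ENSRNOT00000080037 and ENSRNOT00000084558, belong to a group of 8 targets of 49 bases, each with a median of 40.1 CPM and a range of 0.339 to 243 CPM. A second group held 5 targets of 411 bases, headed by ENSRNOT00000072398, each with a median of 166.6 CPM and a range of 0.292 to 658 CPM. The remaining 4 groups were pairs of 348, 348, 486 and 519 bases. Each group is 1 measurement, and the number of transcripts called in a comparison is also given below with each group counted once, as distinct estimates, where that changes it with all the libraries used. Counts over several comparisons, and counts without a library, are of transcripts. A whole estimated count in all 90 libraries, within 0.01, was found for 78 of the 250 (31.2%), for 39.6% of the next 250 by length, and for 41.7% of all well-counted transcripts. Kallisto gives a whole count where no read of a transcript is shared with another.

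Summed over the 250, the share of counts was near 3% in most conditions. In hepatocytes it was 3.01% ± 0.04 (SD, n = 5) on vehicle at 9 h, 2.96% ± 0.09 under the low dose and 3.02% ± 0.16 under the high dose. At 24 h the vehicle libraries of hepatocytes lay between 3.77 and 4.23% (n = 4), above each of the 10 treated libraries at 24 h, which lay between 3.15 and 3.61%, and above each hepatocyte library at 9 h. In renal cells the share was 3.20% ± 0.03 on vehicle at 9 h and 3.21% ± 0.05 at 24 h, and 3.42% ± 0.05 at the high dose at 24 h. In cardiomyocytes it was 3.55% ± 0.06 on vehicle at 9 h, 3.17% ± 0.09 on vehicle at 24 h and 3.79% ± 0.12 at the high dose at 24 h, where the lowest treated library (3.65%) was above the highest vehicle library (3.29%). The share of TPM held by the same transcripts was larger, with condition means between 17.3 and 26.3%.

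**Figure D1:**
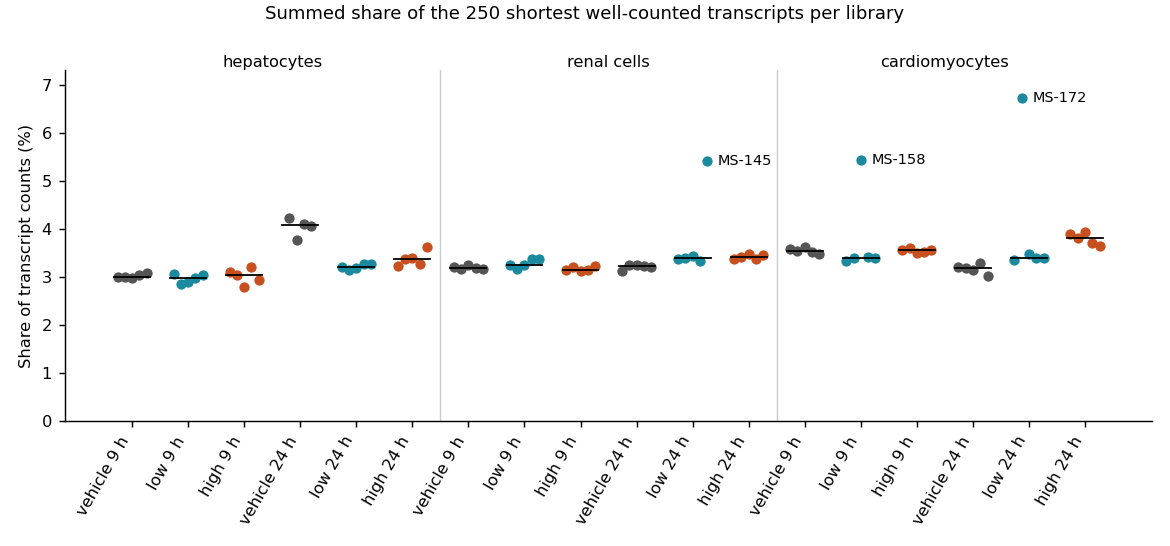
Share of counts on annotated transcripts taken by the 250 shortest well-counted transcripts (y axis, percent) in each of the 89 libraries, grouped by condition (x axis); points are libraries, horizontal lines are medians, grey is vehicle, blue the low dose and orange the high dose. The libraries MS-145, MS-158 and MS-172 sit at 5.41, 5.43 and 6.72%, and the hepatocyte vehicle libraries at 24 h sit above the other hepatocyte libraries.

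In 3 of the low-dose groups 1 library stood apart from the others. MS-145 (renal cells, low dose, 24 h) had a summed share of 5.41% where the other 4 libraries had 3.33 to 3.42%, MS-158 (cardiomyocytes, low dose, 9 h) had 5.43% against 3.33 to 3.41%, and MS-172 (cardiomyocytes, low dose, 24 h) had 6.72% against 3.34 to 3.47%. The rise came from few transcripts. In these libraries 22, 25 and 22 of the 250 were at least 2-fold above the median of the other 4, while 48.8, 44.8 and 46.8% of the 250 were at least 2-fold below it. In all 3 libraries 15 transcripts were raised and 97 were lowered. Most of the added counts lay on ENSRNOT00000046201 (204 bases), ENSRNOT00000044582 (297 bases), ENSRNOT00000051268 (519 bases) and ENSRNOT00000083571 (254 bases), which together took 26857, 27734 and 40255 CPM where the sums of their medians in the other libraries were 2001, 1748 and 3159 CPM. Without these 4 the summed shares of the 3 libraries were 2.73, 2.65 and 2.69%, below the other libraries of their conditions. ENSRNOT00000028315 and the group of 49-base targets moved the other way: they had 264.8, 124.8 and 143.6 CPM, and 0.529, 0.339 and 1.01 CPM, in the 3 libraries. Annotated length minus effective length, which follows the fragment length, was smallest in the same libraries, at 141.8, 138.2 and 130.6 bases for long transcripts, and lay between 145.9 and 181.3 bases in the other 86 libraries used. The part of fragment length in these levels was not tested.

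**Figure D2:**
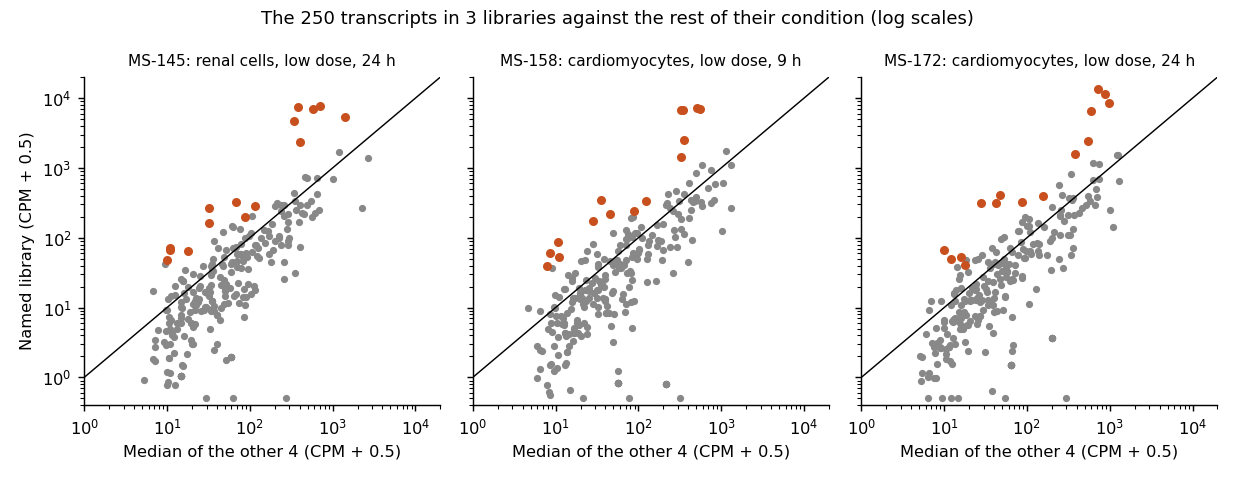
CPM + 0.5 of each of the 250 transcripts in MS-145, MS-158 and MS-172 (y axis, log scale) against the median of the other 4 libraries of the same condition (x axis, log scale); the line marks equal values and orange marks the 15 transcripts at least 2-fold above that median in all 3 libraries. Most grey points lie below the line, and the 4 transcripts with the most added counts lie between 4667 and 13559 CPM in these libraries.

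The spread between replicate libraries had a higher median for the shortest transcripts. The coefficient of variation of CPM within a condition, taken as the median over the 18 conditions for each transcript, had a median of 9.42% over the 250, 8.39% over the next 250 by length, 8.37% over the 250 longest and 7.41% over the other 8591 well-counted transcripts. Without MS-145, MS-158 and MS-172 these medians were 8.78, 7.91, 7.81 and 6.82%.

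The 250 differed in how far their levels ranged across conditions. Over the 250 the median CPM per transcript had a median of 41.8 and ran from 5.43 to 1615 CPM. The difference between the highest and the lowest of the 18 condition medians, on the scale of log2(CPM + 0.5), was 1.06 in the median, below 1 for 42% of the transcripts and above 2 for 20%. A transcript under the floor of 100 counts in 3 conditions could not be among the 250, so large ranges were limited by the choice. ENSRNOT00000048198 (493 bases) varied least, with condition means from 94.1 ± 8.32 CPM (SD, n = 4) in hepatocytes on vehicle for 24 h to 114.5 ± 16.7 CPM (n = 5) in the cardiomyocytes exposed to the low dose for 9 h. ENSRNOT00000013476 (525 bases) and ENSRNOT00000042661 (303 bases) came next, with ranges of condition means of 0.32 and 0.49 on the same log2 scale.

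The most counts were taken by ENSRNOT00000028315 (552 bases, median 1615 CPM and 5495 TPM), ENSRNOT00000066159 (443 bases, 1127 CPM and 5347 TPM) and ENSRNOT00000022846 (472 bases, 993 CPM and 4207 TPM). ENSRNOT00000066159 was even, with 836 to 917 CPM in hepatocytes, 1115 to 1147 CPM in renal cells and 1220 to 1362 CPM in cardiomyocytes on vehicle at 9 h. ENSRNOT00000022846 was not, with 120.8 to 129.2 CPM in hepatocytes, 880 to 1009 CPM in cardiomyocytes and 2115 to 2212 CPM in renal cells on vehicle at 9 h. The widest ranges of condition means belonged to ENSRNOT00000000580 (324 bases), ENSRNOT00000057898 (389 bases) and ENSRNOT00000022846, at 7.21, 6.21 and 4.80 on the log2 scale.

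Differences between conditions were tested for all annotated transcripts that passed a filter on low counts, with edgeR's quasi-likelihood test and Benjamini-Hochberg adjustment, and a transcript was called at an adjusted p of at most 0.05 and a fold change of at least 1.51 (0.41 in natural log). All 250 passed the filter in every comparison. Whether the 5 libraries of a condition were separate cultures is not given by the labels, so the p-values measure the spread between these libraries, which may be technical.

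The largest fold changes among the 250 lay between cell types. On vehicle at 9 h, 65 of the 250 (26.0%) were called between hepatocytes and renal cells, 42 higher in hepatocytes and 23 lower (64 distinct estimates, 22 of them lower), where 61.4% of all transcripts tested, 47.8% of the well-counted and 33.6% of the next 250 by length were called. Between hepatocytes and cardiomyocytes 95 (38.0%) were called, 50 higher and 45 lower in hepatocytes (94 distinct estimates, 44 of them lower), against 64.1% of all tested, 51.8% of the well-counted and 40.8% of the next 250. Between cardiomyocytes and renal cells 55 (22%) were called, 32 higher and 23 lower in cardiomyocytes (53 distinct estimates, 31 and 22), against 45.9%, 31.2% and 18.8%. In each of these comparisons the percentage called among the 250 was below that among all well-counted transcripts, and in the last it was above that among the next 250, differences that were not tested. By mean CPM on vehicle at 9 h, 34.8% of the 250 were highest in hepatocytes, 24.8% in renal cells and 40.4% in cardiomyocytes.

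ENSRNOT00000000580 showed the largest difference. On vehicle at 9 h it had 4.81, 4.94, 5.29, 5.37 and 5.47 CPM in hepatocytes, 203, 205, 208, 208 and 212 CPM in renal cells, and 298, 302, 313, 332 and 342 CPM in cardiomyocytes. The 3 ranges did not overlap, which for hepatocytes against each other cell type was a condition for naming the transcript. The log2 fold change of hepatocytes against renal cells was -5.20 (SE 0.03, adjusted p = 1.07e-16), and against cardiomyocytes it was -5.92 (SE 0.06, adjusted p = 7.65e-16). ENSRNOT00000057898 was the transcript highest in hepatocytes relative to both other cell types, with 291, 301, 326, 327 and 349 CPM there, 17.1 to 18.4 CPM in renal cells and 12.97 to 15.3 CPM in cardiomyocytes. Its log2 fold changes were 4.28 (SE 0.05, adjusted p = 3.01e-15) and 4.51 (SE 0.06, adjusted p = 9.91e-15).

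Cardiomyocytes and renal cells differed most in ENSRNOT00000015612 (472 bases) and ENSRNOT00000087301 (411 bases). ENSRNOT00000015612 had 1343, 1390, 1549, 1589 and 1706 CPM in cardiomyocytes, 328 to 351 CPM in renal cells and 873 to 970 CPM in hepatocytes, and its log2 fold change of cardiomyocytes against renal cells was 2.28 (SE 0.06, adjusted p = 4.86e-12). ENSRNOT00000087301 had 6.53, 6.93, 7.39, 7.999 and 8.34 CPM in cardiomyocytes and 47.8 to 51.3 CPM in renal cells, a log2 fold change of -2.63 (SE 0.05, adjusted p = 5.79e-13). No library of either cell type reached into the range of the other for these transcripts.

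After 9 h of exposure 0 to 4 of the 250 were called at the low dose and 9 to 23 at the high dose. With no fold-change threshold, an adjusted p of at most 0.05 was reached at the high dose by 28% of the 250 in hepatocytes, where 49.7% of all tested and 58.6% of the well-counted reached it, by 61.6% in renal cells, against 59.3% and 68.2%, and by 44.8% in cardiomyocytes, against 45.3% and 55.9%. At the low dose 4 were called in hepatocytes, all higher, where 2.34% of all tested (1.12% higher, 1.22% lower) and 1.06% of the well-counted were called; 4 were called in renal cells, 1 higher and 3 lower (3 distinct estimates, 1 and 2), against 6.69% and 2.03%, and 10 without MS-129; and none was called in cardiomyocytes, against 2.41% and 1.1%. That count of 0 comes from edgeR, with 53 of the 250 at an unadjusted p under 0.05. DESeq2 called 1, limma on log2(CPM + 0.5) called 0, and edgeR with all cardiomyocyte groups in one fit called 4. These fits called 4.07, 1.55 and 3.45% of all tested and 1.78, 0.696 and 1.8% of the well-counted. In hepatocytes the low-dose count at 9 h was 2 with all groups of the cell type in one fit, against 2.15% of all tested and 0.996% of the well-counted. At the high dose 13 (5.2%) were called in hepatocytes, 7 higher and 6 lower, where 18.4% of all tested, 13.1% of the well-counted and 3.2% of the next 250 were called. In renal cells 23 (9.2%) were called at the high dose, 4 higher and 19 lower, against 19.1% and 9.09%, and these 23 stand for 15 distinct estimates, 4 higher and 11 lower; without MS-124 the count was 13, and with all renal groups in one fit it was 12. In cardiomyocytes 9 (3.6%) were called, 4 higher and 5 lower, against 12.6% and 7.11%, and these stand for 5 distinct estimates, since all 5 falls were the group of 411-base targets. Without MS-154 the cardiomyocyte count was 4, without MS-155 it was 18, and with all cardiomyocyte groups in one fit it was 3. The joint fits at the high dose called 8.68% of the well-counted in renal cells and 5.97% in cardiomyocytes. Here and below, the share over all transcripts is not given for fits without a library, so those counts do not show whether the 250 moved apart from the rest. Of the next 250 by length, 0, 2.8 and 1.2% were called at the low dose at 9 h in hepatocytes, renal cells and cardiomyocytes, and 6.4 and 6.0% at the high dose in renal cells and cardiomyocytes.

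In hepatocytes at 9 h the largest rise was in ENSRNOT00000073776, a target shorter than 1 read. It had 5.37, 5.86, 6.42, 7.49 and 7.75 CPM on vehicle, 9.27, 10.6, 11.3, 12.1 and 12.3 CPM at the low dose, and 15.1, 15.2, 15.8, 16.6 and 18.1 CPM at the high dose. The 3 groups did not overlap, which the rule for naming required of the high dose against vehicle, and stood in the order of dose. Its log2 fold changes against vehicle were 0.79 (SE 0.11, adjusted p = 9.38e-04) for the low dose and 1.39 (SE 0.10, adjusted p = 6.92e-07) for the high dose. The largest fall was in ENSRNOT00000087301, from 33.3, 38.0, 38.2, 38.7 and 41.4 CPM on vehicle to 10.8, 11.3, 18.5, 18.5 and 19.7 CPM at the high dose, a log2 fold change of -1.17 (SE 0.16, adjusted p = 1.09e-04).

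In renal cells at 9 h ENSRNOT00000032015 (451 bases) rose most. It had 39.9, 40.7, 40.7, 41.2 and 42.0 CPM on vehicle and 83.8, 86.8, 87.5, 88.4 and 89.7 CPM at the high dose, and its log2 fold change was 1.12 (SE 0.02, adjusted p = 1.17e-11). ENSRNOT00000072581 (345 bases) fell most, from 10.2, 10.6, 10.9, 11.3 and 11.6 CPM to 4.03, 4.03, 4.19, 4.55 and 4.86 CPM (log2 fold change -1.30, SE 0.07, adjusted p = 1.92e-08). In cardiomyocytes at 9 h the largest rise was in ENSRNOT00000028315, the transcript with the most counts, from 647, 657, 676, 682 and 697 CPM to 1487, 1530, 1544, 1614 and 1648 CPM. Its log2 fold change there was 1.17 (SE 0.03, adjusted p = 1.06e-10).

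At 24 h the low dose gave different counts in the 3 cell types. In hepatocytes 49 of the 250 (19.6%) were called, 15 higher and 34 lower, against 37% of all tested, 30% of the well-counted and 18.0% of the next 250. These 49 stand for 42 distinct estimates, 15 higher and 27 lower, since all 8 of the 49-base targets fell. In renal cells and cardiomyocytes none was called; over all tested the percentages called were 0.0622% in renal cells and 0% in cardiomyocytes. Among the 250, edgeR gave 14 at an unadjusted p under 0.05 in renal cells and 33 in cardiomyocytes, and DESeq2 called 0 and 1 of the 250. DESeq2 called 0.356 and 1.06% of all tested and 0.203 and 0.717% of the well-counted. With all groups of the cell type in one fit edgeR called 1 in renal cells and 2 in cardiomyocytes, against 0.418 and 0.867% of the well-counted. The low-dose groups of those cells include MS-145 and MS-172, and the counts were also 0 without either library.

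The high dose at 24 h changed 43 of the 250 in hepatocytes (17.2%, 19 higher and 24 lower), where 26.7% of all tested, 19% of the well-counted and 14.4% of the next 250 were called. With the 49-base targets, which all fell, counted once, these are 36 distinct estimates, 19 higher and 17 lower. In renal cells 36 (14.4%) were called, 10 higher and 26 lower, against 26.9%, 17.3% and 14.4%. In cardiomyocytes 21 (8.4%) were called, all 21 higher, against 12.4%, 6.64% and 6.0%, and 8 (3.2%) were called with all cardiomyocyte groups in one fit. Over all transcripts tested in cardiomyocytes, 6.01% were called higher and 6.39% lower. The 21 stand for 9 distinct estimates, because 13 of them belong to the groups of 49-base and 411-base targets and 2 are the identical pair ENSRNOT00000008608 and ENSRNOT00000077564 (348 bases). The median log2 fold change over the 250 was -0.02 in hepatocytes, -0.15 in renal cells and 0.11 in cardiomyocytes, where over all transcripts tested it was 0.02, 0.02 and 0.003.

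**Figure D3:**
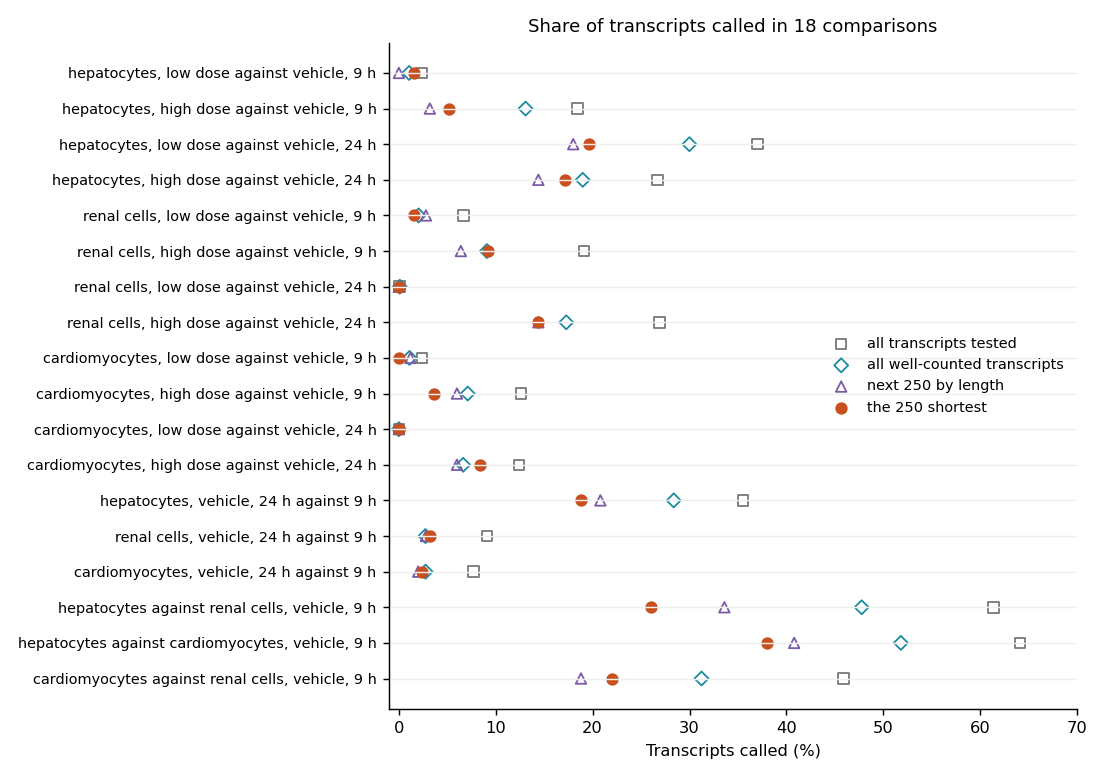
Percentage of transcripts called (x axis) in 18 comparisons (y axis) among the 250 shortest well-counted transcripts (filled circles), the next 250 by length (triangles), all well-counted transcripts (diamonds) and all transcripts tested (squares). The filled circles lie left of the squares in each comparison in which a transcript of the 250 was called, and near the triangles in most.

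The repeated short targets made up most of the cardiomyocyte count, and their groups overlapped. The 49-base target ENSRNOT00000071640 had 14.9, 16.2, 19.7, 21.6 and 40.7 CPM on vehicle at 24 h and 33.7, 46.0, 59.0, 85.5 and 95.8 CPM at the high dose (log2 fold change 1.49, SE 0.34, adjusted p = 0.00675). Its vehicle libraries at 9 h held 16.5 to 74.3 CPM, which covers most of both ranges. The 411-base target ENSRNOT00000072398 had 58.8, 59.6, 71.8, 77.3 and 227 CPM on vehicle at 24 h and 108, 216, 316, 373 and 385 CPM at the high dose (1.49, SE 0.45, adjusted p = 0.0274), and at 9 h it was called in the other direction, from 76.5 to 346 CPM on vehicle to 44.6 to 186 CPM (-1.44, SE 0.47, adjusted p = 0.0265).

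ENSRNOT00000028315 rose most in cardiomyocytes at 24 h, as at 9 h, from 409, 591, 635, 654 and 682 CPM on vehicle to 1534, 1690, 1835, 1934 and 2043 CPM at the high dose. The groups were far apart, and the log2 fold change was 1.60 (SE 0.13, adjusted p = 4.19e-06). In renal cells the same transcript had 963, 1050, 1438, 1508 and 1532 CPM on vehicle at 24 h and 1511, 2063, 2693, 3099 and 3235 CPM at the high dose, ranges that touch at their ends (log2 fold change 0.90, SE 0.19, adjusted p = 0.00266). In hepatocytes it was lower at the high dose, with 1435, 2242, 2411, 2442 and 2458 CPM against 3209, 3315, 3607 and 4100 CPM on vehicle at 24 h (-0.73, SE 0.14, adjusted p = 0.00145). Its hepatocyte vehicle libraries at 9 h had 2038 to 2195 CPM, within the range of the treated libraries at 24 h. The response in hepatocytes differed from that in cardiomyocytes by -2.26 (SE 0.25, adjusted p = 3.28e-08) and from that in renal cells by -1.60 (SE 0.25, adjusted p = 5.78e-06) on the log2 scale, at doses that differ between the cell types.

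ENSRNOT00000057898 changed most of all in renal cells. It had 13.7, 13.8, 13.8, 14.0 and 14.1 CPM on vehicle at 24 h and 241, 250, 257, 259 and 305 CPM at the high dose, a log2 fold change of 4.18 (SE 0.08, adjusted p = 1.30e-10). At 9 h its high-dose libraries in renal cells held 22.7 to 27.5 CPM and its vehicle libraries 17.1 to 18.4 CPM, so most of the rise lay between 9 and 24 h. In cardiomyocytes it rose from 20.9, 20.9, 21.0, 21.8 and 22.6 CPM to 43.5, 45.1, 52.5, 55.2 and 79.4 CPM (1.35, SE 0.14, adjusted p = 3.04e-05). In hepatocytes it fell, from 913, 1044, 1065 and 1224 CPM on vehicle at 24 h to 150.4, 153.95, 165.9, 195.8 and 218 CPM at the high dose (-2.61, SE 0.14, adjusted p = 3.69e-07), and its vehicle libraries at 9 h held 291 to 349 CPM. The treated hepatocytes at 24 h were thus below both vehicle groups. The difference between the hepatocyte and the renal response was -6.78 (SE 0.19, adjusted p = 7.80e-21) on the log2 scale.

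ENSRNOT00000032015 was the only transcript of the 250 called in the same direction at the high dose at 24 h in all 3 cell types. Its hepatocyte call was lost with MS-183 kept in, and its cardiomyocyte call at a fold change of at least 2. In renal cells it had 24.9, 26.9, 32.2, 33.3 and 35.8 CPM on vehicle and 133.1, 157.7, 184.3, 186.2 and 202 CPM at the high dose (log2 fold change 2.43, SE 0.11, adjusted p = 3.35e-08). In hepatocytes it had 110.4, 114.01, 130.5 and 131.4 CPM on vehicle and 242, 301, 315, 336 and 342 CPM at the high dose (1.31, SE 0.10, adjusted p = 2.81e-06), beside 276 to 303 CPM on vehicle at 9 h, so the treated libraries lay around the level of the earlier vehicle group. In cardiomyocytes the groups overlapped, with 12.5, 19.7, 21.1, 21.2 and 38.6 CPM on vehicle and 36.0, 39.0, 39.9, 45.1 and 51.2 CPM at the high dose (0.89, SE 0.24, adjusted p = 0.0160). Of the 250, 69.2% were called in none of the 3 cell types under the high dose at 24 h, 57 transcripts in 1, 17 in 2 and 3 in all 3 (1.2%). Of the well-counted transcripts 67.4% were called in none, 24% in 1, 6.99% in 2 and 1.64% in all 3, with 0.107% called in the same direction in all 3, and of the 14528 transcripts tested in each cell type 59.1% were called in none and 2.48% in all 3, with 0.392% in the same direction. The other members of the last class, ENSRNOT00000057898 and ENSRNOT00000028315, fell in hepatocytes and rose in the other two cell types.

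**Figure D4:**
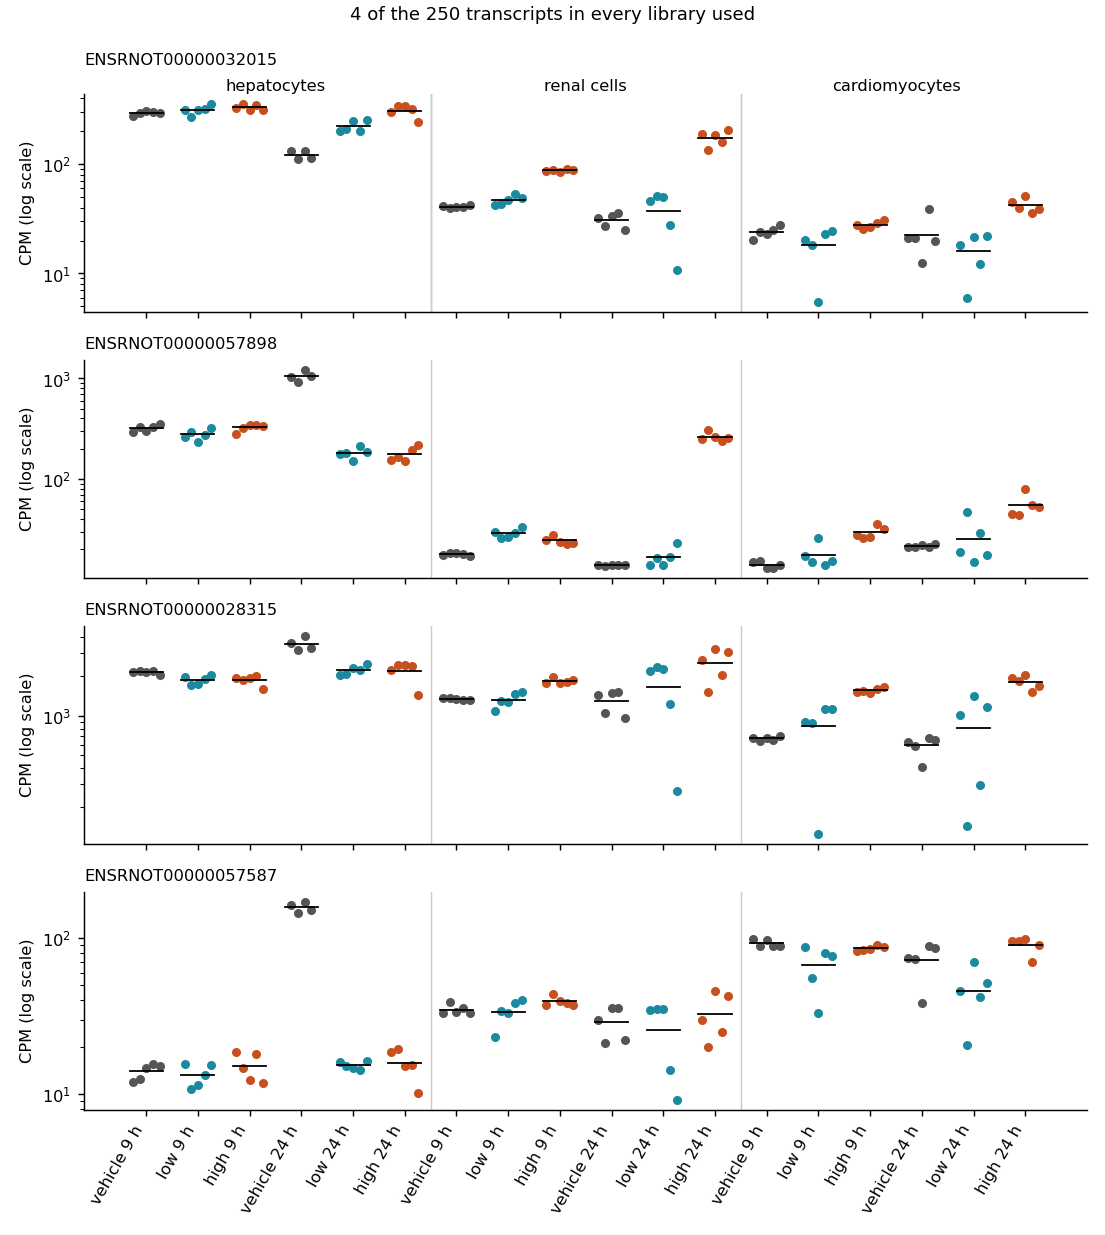
CPM (y axis, log scale) of ENSRNOT00000032015, ENSRNOT00000057898, ENSRNOT00000028315 and ENSRNOT00000057587 in each library, by condition (x axis); points are libraries, lines are means, grey is vehicle, blue the low dose and orange the high dose. ENSRNOT00000057898 reaches 241 to 305 CPM in renal cells at the high dose at 24 h and 913 to 1224 CPM in hepatocytes on vehicle at 24 h.

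The hepatocyte comparisons at 24 h rest on a vehicle group that differed from the vehicle group at 9 h as well as from both treated groups at 24 h. Between 9 and 24 h on vehicle, 47 of the 250 (18.8%) were called in hepatocytes, 34 higher and 13 lower at 24 h, where 35.5% of all tested, 28.4% of the well-counted and 20.8% of the next 250 were called. These 47 stand for 40 distinct estimates, 27 higher and 13 lower. In renal cells 8 (3.2%) were called between the vehicle groups, 6 higher and 2 lower (7 distinct estimates, 6 and 1), against 9.1%, 2.74% and 2.8%, and in cardiomyocytes 6 (2.4%), 4 higher and 2 lower, against 7.7%, 2.76% and 2.0% and with 20 called without MS-169. Measured from the mean of the hepatocyte vehicle libraries at 9 h on the scale of log2(CPM + 0.5), the vehicle mean at 24 h was more than 2-fold away for 21 of the 250 (14 distinct estimates, since 8 are the 49-base targets), the low-dose mean at 24 h for 3 and the high-dose mean at 24 h for 5. The libraries of the vehicle group at 24 h carry the numbers MS-181 to MS-185, and the other hepatocyte libraries carry numbers from MS-91 to MS-120. With MS-183 kept in, the count over time was 20, and those at the low and high dose at 24 h were 23 and 15. The labels do not say whether the vehicle and treated libraries were prepared together, so a separate preparation and the condition cannot be told apart.

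ENSRNOT00000044222 (519 bases) and ENSRNOT00000057587 (348 bases), the largest rise and the largest fall at the high dose at 24 h in hepatocytes, show this. ENSRNOT00000044222 had 0.0936, 0.639, 0.694 and 1.11 CPM on vehicle at 24 h and 4.39, 8.74, 9.00, 9.80 and 10.3 CPM at the high dose (log2 fold change 3.72, SE 0.48, adjusted p = 1.31e-04). On vehicle at 9 h it had 6.33, 7.12, 7.25, 7.77 and 7.91 CPM, within the treated range. ENSRNOT00000057587 had 143.98, 150.4, 162.9 and 170.4 CPM on vehicle at 24 h, 10.2, 15.2, 15.3, 18.5 and 19.3 CPM at the high dose (-3.35, SE 0.15, adjusted p = 8.57e-08), and 11.98 to 15.7 CPM on vehicle at 9 h. The low-dose libraries at 24 h held 6.42 to 8.24 CPM of the first and 14.4 to 16.3 CPM of the second, so for both transcripts the vehicle group at 24 h was the one that lay apart.

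Others behaved in the same way. ENSRNOT00000042736, chosen after its values were seen, had 279, 331, 332 and 379 CPM on vehicle at 24 h, where its libraries on vehicle at 9 h, and at 24 h under either dose, lay between 46.2 and 55.5 CPM. ENSRNOT00000040283 (69 bases), chosen likewise, had 136.7, 156.7, 160.8 and 261.9 CPM on vehicle at 24 h, and 17.3 to 27.3 CPM in the same 3 groups. ENSRNOT00000022846 differed from these: it was called higher with the low dose (1.53, SE 0.06, adjusted p = 1.15e-08) and with the high dose (0.93, SE 0.13, adjusted p = 2.29e-04) in hepatocytes at 24 h, while its vehicle groups at 24 and 9 h differed by -0.07 (SE 0.05, adjusted p = 0.203).

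Some of the transcripts that stood apart in MS-145, MS-158 and MS-172 also varied within other groups. ENSRNOT00000083571 had 389, 783, 2176 and 2545 CPM in hepatocytes on vehicle at 24 h and 344 to 722 CPM at the high dose (log2 fold change -1.50, SE 0.48, adjusted p = 0.0266). The libraries of that vehicle group spread more widely than the groups lay apart. ENSRNOT00000051268 had 1100, 1166, 1850 and 2601 CPM on vehicle at 24 h and 495, 529, 530, 540 and 1318 CPM at the high dose (-1.31, SE 0.38, adjusted p = 0.0161), the highest treated value being that of MS-120, where length minus effective length was 145.9 bases. ENSRNOT00000041241 (348 bases), the largest fall in renal cells at 24 h with groups that did not overlap, belongs to the same 15 transcripts: it had 364, 365, 370, 635 and 696 CPM on vehicle and 126.02, 129.6, 171.6, 243 and 333 CPM at the high dose (-1.33, SE 0.34, adjusted p = 0.00641). Summed, the 4 transcripts with the most added counts took 0.181 to 0.599% of counts in hepatocytes on vehicle at 24 h, and the other 246 took 3.31 to 4.01%, above the 3.06 to 3.19% of the same 246 at the high dose at 24 h.

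ENSRNOT00000072581, the largest fall in renal cells at 9 h, remained lower at 24 h. It had 9.21, 10.6, 10.7, 10.8 and 11.0 CPM on vehicle and 3.55, 3.96, 4.53, 5.01 and 5.03 CPM at the high dose (-1.30, SE 0.10, adjusted p = 1.44e-06). In hepatocytes it fell at the high dose at 9 h, from 8.10 to 9.59 CPM on vehicle to 4.76 to 5.60 CPM (-0.71, SE 0.08, adjusted p = 2.87e-05). At 24 h it was called higher at the high dose (0.73, SE 0.13, adjusted p = 0.00125), with 5.30 to 7.56 CPM against 3.62 to 3.88 CPM on vehicle, both below the vehicle level at 9 h. ENSRNOT00000000580 was called higher at the high dose at 9 h in all 3 cell types, with log2 fold changes of 0.97 (SE 0.09) in hepatocytes, 0.69 (SE 0.03) in renal cells and 0.88 (SE 0.06) in cardiomyocytes, and the groups did not overlap in any of them. At 24 h it was called higher in renal cells (1.33, SE 0.22, adjusted p = 4.31e-04) and cardiomyocytes (1.02, SE 0.22, adjusted p = 0.00524). In hepatocytes at 24 h it was called lower at the low dose, with 3.08 to 4.04 CPM against 13.8, 14.0, 16.1 and 17.6 CPM on vehicle (-2.16, SE 0.11, adjusted p = 6.24e-08), and was not called at the high dose, with 10.7 to 21.5 CPM (-0.18, SE 0.22, adjusted p = 0.534). Its hepatocyte vehicle libraries at 9 h held 4.81 to 5.47 CPM, above the low-dose libraries at 24 h and below both the vehicle and the high-dose libraries at 24 h.

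**Figure D5:**
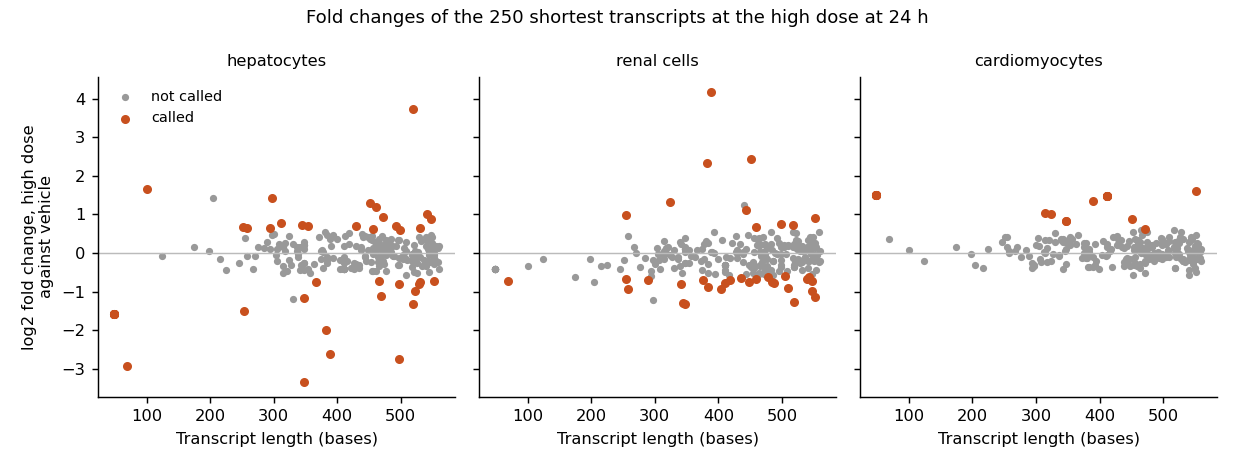
Log2 fold change of the high dose against vehicle at 24 h (y axis) against annotated transcript length in bases (x axis) for the 250 transcripts in hepatocytes, renal cells and cardiomyocytes; orange marks transcripts called and grey those not called. The called transcripts spread over the whole range of lengths, and in cardiomyocytes all 21 lie above 0.

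Over the 12 comparisons of a dose with its vehicle, 61.6% of the 250 were called in none, 43 transcripts in 1, 25 in 2, 11 in 3 and 17 (6.8%) in 4 or more. Called in none were 63.2% of the next 250 by length, 49.5% of the well-counted and 41% of the 13818 transcripts tested in each of the 12, and called in 4 or more were 3.2, 7.05 and 10.5% of these. Of the last 17, 8 are the 49-base targets with identical counts. The difference between the high-dose responses of 2 cell types at 24 h was tested directly as well. Between hepatocytes and renal cells 90 (36.0%) of the 250 differed, 61 with the larger log2 fold change in hepatocytes and 29 in renal cells, against 35.1% of all tested, 38.5% of the well-counted and 32.8% of the next 250. Between hepatocytes and cardiomyocytes 79 (31.6%) differed, 36 with the larger log2 fold change in hepatocytes and 43 in cardiomyocytes, against 28%, 29.1% and 24.0%, and these 79 stand for 72 distinct estimates, 36 in each direction. Between cardiomyocytes and renal cells 37 (14.8%) differed, 33 with the larger log2 fold change in cardiomyocytes and 4 in renal cells, against 19.4%, 17.5% and 12.4%, and these 37 stand for 29 distinct estimates, 25 and 4. Both hepatocyte differences include the vehicle group at 24 h described above.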

How the data were processed

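Poly-A-enriched stranded libraries were sequenced as 150-base read pairs. The authors quantified them with Kallisto 0.42.4 against the Ensembl Rnor_6.0 transcriptome and deposited 1 table per library with an estimated count and a TPM value for each target. Targets named by genomic interval were left out, and CPM was computed over the annotated transcripts. The transcripts, the rule for those named and the tests were chosen with earlier results of these data known. Named are the shortest, those at the length limit, those with the most counts and the widest and narrowest ranges, and, per high-dose and per cell-type comparison, the largest called change in each direction with groups that did not overlap, plus transcripts called in 1 direction in all 3 cell types at 24 h. Lists of cell type markers and short-message genes could not be matched to transcript identifiers.

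Estimated counts were rounded and tested over all annotated transcripts with edgeR 4.0.16 in R 4.3.3 (filterByExpr, TMM, quasi-likelihood test, Benjamini-Hochberg adjustment), fitting only the groups compared. The study itself used Sleuth, which was not run here. The difference between responses was instead an interaction term in a fit over the vehicle and high-dose groups at 24 h of all cell types. Filtering and dispersion in that fit therefore also drew on the cell type not compared. Transcripts were called where the adjusted p did not exceed 0.05 and the fold change reached 0.41 in natural log. MS-183 was left out. The test was checked on simulated data for hepatocytes, high dose against vehicle at 9 h (16465 transcripts): 178 of 200 changed transcripts were recovered, 123 of 129 among those changed at least 2-fold, with 4 false calls. DESeq2 1.42.0, limma 3.58.1, other normalization, filters and thresholds, and leaving out each library were alternatives. Counts as low as 10519414 per library limit the precision of the least counted transcripts, and shared reads limit that of repeated targets.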

Additional observations from a re-analysis of the deposited data

Results flagged for a closer look

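In 54 groups of libraries tested for a library lying apart from the rest of its group (Dixon's criterion), 6 had one, where chance gives about 2.7. For the summed share of counts these were MS-136 (renal cells, vehicle, 24 h) at 3.12% against 3.21 to 3.24%, MS-145 at 5.41% against 3.33 to 3.42%, MS-158 at 5.43% against 3.33 to 3.41% and MS-172 at 6.72% against 3.34 to 3.47%. For single transcripts they were ENSRNOT00000044222 in MS-120 (hepatocytes, high dose, 24 h) at 4.39 CPM against 8.74 to 10.3 CPM, and ENSRNOT00000057898 in MS-147 (renal cells, high dose, 24 h) at 305 CPM against 241 to 259 CPM. MS-183, the library left out, had a summed share of 13.6%, where the other 4 libraries of its condition had 3.77 to 4.23%.

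The high-dose responses at 24 h of 5 named transcripts differed between cell types by edgeR's interaction test, at doses that differ. For ENSRNOT00000028315 the log2 fold change in cardiomyocytes was 0.66 above that in renal cells (SE 0.24, adjusted p = 0.0389), and hepatocytes differed from cardiomyocytes by -2.26 (adjusted p = 3.28e-08) and from renal cells by -1.60 (adjusted p = 5.78e-06). For ENSRNOT00000032015 cardiomyocytes differed from renal cells by -1.59 (SE 0.25, adjusted p = 1.40e-05) and hepatocytes from renal cells by -1.10 (SE 0.25, adjusted p = 6.65e-04). ENSRNOT00000044222 changed more in hepatocytes than in cardiomyocytes by 3.54 (adjusted p = 1.69e-07) and than in renal cells by 3.54 (adjusted p = 1.22e-07). For ENSRNOT00000057587 the hepatocyte response differed by -3.59 from cardiomyocytes (adjusted p = 2.03e-10) and by -3.44 from renal cells (adjusted p = 3.63e-10). These last 2 transcripts were named for their large change in hepatocytes at 24 h. For both, the hepatocyte vehicle group at 24 h lay apart from the earlier vehicle group and from both doses. All hepatocyte differences given here use that vehicle group. For ENSRNOT00000057898 cardiomyocytes differed from renal cells by -2.88 (adjusted p = 8.78e-13), hepatocytes from cardiomyocytes by -3.89 (adjusted p = 4.59e-16) and hepatocytes from renal cells by -6.78 (adjusted p = 7.80e-21).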

How the results depend on the processing

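No paired analysis was possible, because each library carries its own number and the labels do not say which libraries of different groups belong together. Of the values for named transcripts under the alternatives, 334 kept their direction and their side of the threshold and 2 lost the call, both for ENSRNOT00000032015: in hepatocytes at 24 h with MS-183 (1.57, adjusted p = 0.106, edgeR), and in cardiomyocytes at 24 h at a fold change of at least 2 (0.89); none reversed. Of the counts and shares, 381 stayed within the limits set and 88 moved, as follows. For the shares the limit was the SD between libraries, which leaving out a library could not exceed and the share of TPM always exceeded. The labels of the shares were thus fixed in advance and say nothing about their stability. Counts are given as percentages of the 250 called, and the cause was not tested where the setting itself does not give it.

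With no fold-change threshold the percentages for the low and high dose were 7.6 and 28% at 9 h and 63.2 and 46% at 24 h in hepatocytes, 19.6 and 61.6% at 9 h and, for the high dose, 43.6% at 24 h in renal cells, and 1.2 and 44.8% at 9 h and, for the high dose, 34% at 24 h in cardiomyocytes. Over time on vehicle they were 61.6, 22.8 and 25.6% in hepatocytes, renal cells and cardiomyocytes, between cell types 81.6% (hepatocytes, renal cells), 80.4% (hepatocytes, cardiomyocytes) and 76.4%, and for differences between responses 57.2, 53.2 and 27.6% in the same order. Of the well-counted transcripts, in the order of these values, 23.3, 58.6, 72.9, 53.4, 33.1, 68.2, 58.4, 4.94, 55.9 and 33.7% were then called for the doses, 70.5, 36.4 and 28.2% over time, 86.4, 86.0 and 81.3% between cell types and 62.8, 53.2 and 42.0% for responses. At a fold change of at least 2 they were 0 and 1.6% at 9 h and 10 and 9.2% at 24 h in hepatocytes, 0.4 and 1.6% at 9 h and, for the high dose, 3.6% at 24 h in renal cells, 10, 0.8 and 0.4% over time, 14, 16 and 6.4% between cell types, and 12.8, 12.4 and 7.2% for responses, where of the well-counted 0.0749, 2.95, 10.8, 6.06, 0.407, 2.42 and 4.72%, then 10.1, 0.428 and 0.6%, 26.8, 30.4 and 13.8%, and 17.3, 11.7 and 5.02% were called. With MS-183 they were 9.2 and 6% for the low and high dose at 24 h and 8% over time in hepatocytes, against 15.8, 7.47 and 15.8% of the well-counted. With the groups of each cell type fitted jointly they were 0.8% for the low dose at 9 h in hepatocytes, 4.8% for the high dose at 9 h and 0.4% for the low dose at 24 h in renal cells, and 1.6 and 1.2% at 9 h and 0.8 and 3.2% at 24 h in cardiomyocytes, against 0.996, 8.68, 0.418, 1.8, 5.97, 0.867 and 5.94% of the well-counted. DESeq2 called 0.4% for the low dose in cardiomyocytes at 9 h and 0.4% at 24 h, against 1.78 and 0.717% of the well-counted. By limma on log2(TPM + 1) they were 2.8 and 6% at 9 h and 8% over time in renal cells and 8% for the high dose at 9 h in cardiomyocytes, against 1.83, 7.7, 2.75 and 6.46% of the well-counted. On log2(CPM + 0.5) they were 5.2% over time in renal cells, against 3.3% of the well-counted. With identical estimates counted once, a setting added after the data were seen, they were, of 235, 6.38% for the high dose at 9 h in renal cells and 2.13 and 3.83% for the high dose at 9 and 24 h in cardiomyocytes. Leaving out 1 library gave 0 to 0.4% for the low dose at 9 h in cardiomyocytes, 1.6% (without MS-154) to 7.2% (without MS-155) for the high dose at 9 h, 2 to 8% (without MS-169) over time, and in renal cells 1.2 to 4% (without MS-129) for the low dose at 9 h and 5.2% (without MS-124) to 9.6% for the high dose at 9 h. The shares over all transcripts in these fits are not given here.

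In TPM, which divides by effective length, the mean summed shares on vehicle and under the low and the high dose were 17.8, 17.3 and 18.6% at 9 h and 25.8, 19.1 and 19.2% at 24 h in hepatocytes, 20.9, 20.9 and 19.9% at 9 h and 20.8, 22.8 and 20.7% at 24 h in renal cells, and 22.3, 24.8 and 21.0% at 9 h and 20.2, 26.3 and 23.7% at 24 h in cardiomyocytes.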
